A study of Drosophila melanogaster with 12 samples.

Results

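The genes described here are 10 components of Eiger and Jun N-terminal kinase (JNK) signalling in the fly Drosophila melanogaster, chosen by name and found in both deposited expression tables among 16508 genes. They are egr, wgn, Tak1, hep, bsk, puc, kay, Jra, Mmp1 and Ets21C. The rule of choice names genes and uses no measured value, but it was set with earlier results of these data known. RNA was measured in adult heads and in embryos of the strains yw (called wild type by the labels) and p535A-1-4 (the p53 mutant), each either mock treated or given 40 Gy of ionizing radiation. Adults were 1 to 2 weeks old, with 3 h of recovery given for flies in the protocol attached to the embryo samples, and embryos were treated at 3 to 4 h of age, recovered for 1.5 h and were collected at 4.5 to 5.5 h. Chromatin bound by p53 was precipitated from heads and embryos of both strains, with the treatment field given as not applicable. Each of the 8 RNA groups and 4 chromatin groups held a single library from pooled heads, described as mixed adults, or pooled embryos, so no difference has a replicate check and none was tested. The labels give no shared genetic background for the strains, which may differ at loci other than p53.

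Eiger, encoded by egr, is the fly's tumour necrosis factor, a ligand that binds the receptors Wengen (wgn) and Grindelwald (grnd). The signal passes through adaptor proteins to a chain of kinases: Tak1 activates Hemipterous (hep), which activates Basket (bsk), the fly JNK. JNK in turn acts on the AP-1 factors Kayak (kay, fly Fos) and Jra (fly Jun), which switch on puc, Mmp1 and Ets21C, among other genes. Puckered, the product of puc, is a phosphatase that switches JNK off again, and puc transcription is widely used as a readout of JNK activity. The pathway is known in flies for cell death after damage, wound closure and the closing of the embryo's back. JNK activity itself is set by phosphorylation, which RNA levels do not measure.

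Expression values are FPKM, fragments scaled to transcript length and to library depth, which are per length and so can be compared between genes. Differences are given as log2(FPKM + 1), a scale on which the change of weakly expressed genes comes out too small, and a gene was counted as changed at 2-fold or more. A gene entered the counts of a tissue when any of its 4 libraries held 1 FPKM or more, which left 10652 genes in embryos and 10670 in heads. All 10 genes did so in heads and 9 of them in embryos, where Ets21C stayed below. Depth, read from the spacing of low FPKM values, was 18.9 to 23.2 M fragments in embryo libraries and 10.5 to 13.6 M in head libraries. Intervals given with ratios are exact binomial intervals at the 95% level from the estimated fragments, and they cover counting error only. The p53 transcript stood at 25.9 and 54.5 FPKM in wild-type embryos against 0.70 and 0.34 FPKM in mutant embryos, and at 11.7 and 13.3 FPKM in wild-type heads against 0.532 and 0.549 FPKM in mutant heads. Photoreceptor and segmentation genes fitted the tissue labels. The 4 photoreceptor genes summed to 5199 to 7095 FPKM in heads and to 2.70 to 3.41 FPKM in embryos, and 5 segmentation genes to 6.65 to 7.29 FPKM in heads and to 125 to 154 FPKM in embryos. Not every marker list separated the tissues. The 4 muscle genes summed to 322 to 357 FPKM in embryos and to 448 to 533 FPKM in heads. Gut genes, described below, varied between libraries of the same tissue. Because these are whole tissues, fewer cells of a type and less RNA per cell cannot be told apart.

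The ligand gene egr was the only member to pass 2-fold with radiation, and it did so in wild-type embryos. It lies on 2R:10078366-10084210 (dm6, plus strand), has 7 exons in 2 annotated transcripts, and encloses 4 small nucleolar or Cajal body RNA genes on the opposite strand. In embryos egr stood at 30.1 FPKM in the mock-treated wild type, 68.0 FPKM in the irradiated wild type, 26.1 FPKM in the mock-treated mutant and 25.8 FPKM in the irradiated mutant. The irradiated wild type stood apart, and the other 3 libraries lay close together. In wild-type embryos egr rose by a log2 difference of 1.15, a ratio of 2.26 with a counting interval of 2.11 to 2.42, from about 1139 to 2799 fragments. That placed egr at rank 114 from the top of 10652 genes. In mutant embryos the log2 difference was -0.02, a ratio of 0.988. The wild-type minus mutant difference was 1.17, and irradiated mutant embryos held less egr than irradiated wild-type embryos by a log2 difference of -1.36, a ratio of 0.380 with a counting interval of 0.355 to 0.406.

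**Figure D1:**
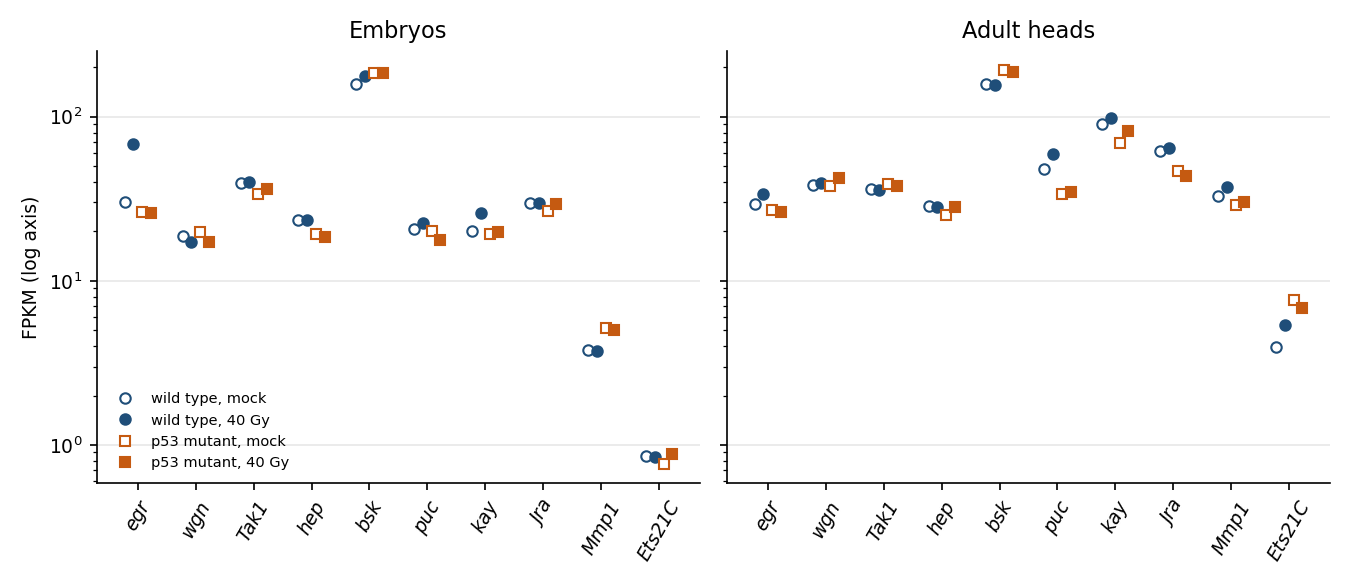
FPKM on a log axis of the 10 genes in embryos (left) and adult heads (right), 1 point per library, with open symbols for mock and filled symbols for 40 Gy. In embryos the filled circle of egr at 68.0 FPKM stands above its other 3 points, which lie between 25.8 and 30.1 FPKM, while bsk is the highest gene in both tissues.

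In heads the same gene differed little. Levels of egr were 29.5 FPKM in the mock-treated wild type and 33.6 FPKM after radiation, and 27.0 and 26.1 FPKM in the same treatments of mutant heads. The irradiated wild type was again the highest library, by a smaller margin than in embryos. The wild-type log2 difference was 0.18, a ratio of 1.14 with a counting interval of 1.02 to 1.26, at rank 1862 from the top of 10670 genes. The mutant log2 difference was -0.05. That the response of egr differs between embryo and head was not tested, and the tissues were also sampled at different times after radiation.

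The start of egr was bound by p53 in both tissues. The deposited embryo list has a peak at 2R:10078203-10078601, and the deposited head list a peak at 2R:10078199-10078593, and the peaks share 391 bp. The authors' fold of wild-type over mutant chromatin was 5.04 in embryos, the fifth highest of 135 peaks, and 4.32 in heads, at rank 95 of 392. The summit lay 45 bp inside the gene in embryos, in the 5′ UTR of the first exon, and 2 bp before the annotated start in heads. The labels name the mutant p535A-1-4, while the names of the deposited peaks carry another strain tag, and the labels were followed here for what the fold is over. Ranks from lists of different lengths cannot show whether binding differed between the tissues. A head peak at the egr start thus stood beside a head transcript level that moved by a ratio of 1.14 after radiation.

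**Figure D2:**
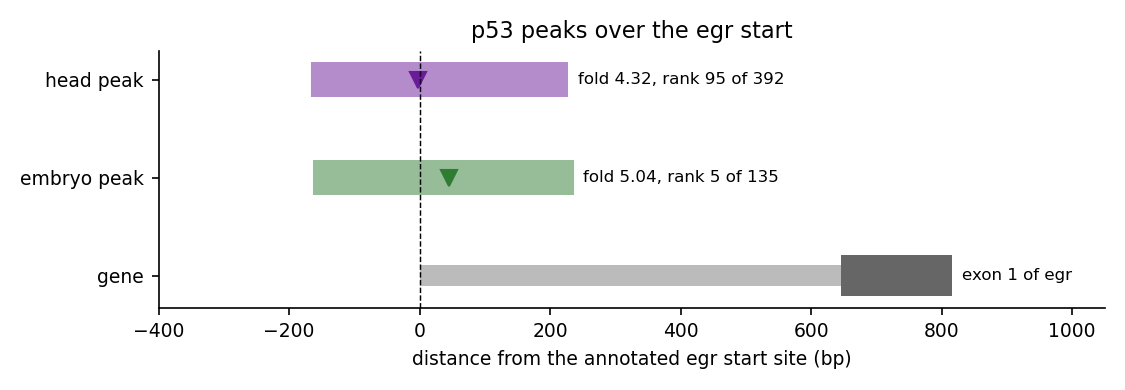
Position of the p53 peaks relative to the annotated egr start site, in base pairs, with the first exon below (thin, 5′ UTR; thick, coding part) and triangles at the summits. The embryo and head peaks cover nearly the same interval over the start, with summits 47 bp apart.

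No other gene of the 10 had a peak inside or within 5 kb of its locus in either list. This makes 1 of 10 in each tissue, where 1.91% of all genes of the table had such a peak in embryos and 7.12% in heads. The next nearest was Jra, which lies on the same chromosome arm as egr, and whose nearest peak in both tissues was the one at egr, 17.9 kb away. The gap to the nearest head peak was 24.7 kb for Mmp1, 47.4 kb for kay, 72.5 kb for Ets21C, 74.5 kb for puc, 85.9 kb for bsk and 88.8 kb for Tak1. It was 229 kb for wgn and 336 kb for hep. The nearest embryo peak was 85.9 kb from bsk and more than that from the other 7 genes, with the largest gaps at puc (1602 kb) and Ets21C (1626 kb).

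Genes that p53 bound at their start were a small group in embryos. A start within 1000 bp of an embryo summit was found for 54 expressed genes, of which 7, or 13.0%, were higher by 2-fold in irradiated wild-type embryos, and egr ranked the fifth among them by its response. In heads 248 genes met the same condition, 1 of them, or 0.403%, was higher by 2-fold, and egr ranked 30. Over all genes 1.32% were higher in irradiated wild-type embryos and 1.52% in irradiated wild-type heads. The window of 1000 bp was chosen after the data were seen.

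The receptor and kinase genes between ligand and AP-1 stayed under 2-fold with radiation in both strains and tissues. The receptor gene wgn stood at 18.7, 17.2, 19.8 and 17.3 FPKM in embryos, in the order wild-type mock, wild-type irradiated, mutant mock and mutant irradiated. Its radiation differences were -0.11 in the wild type and -0.18 in the mutant. In heads wgn stood at 38.2, 39.3, 37.5 and 42.6 FPKM in that order. The wild-type ratio after radiation was 0.922 in embryos, with a counting interval of 0.835 to 1.02 that includes 1. The other Eiger receptor gene, grnd, listed as CG10176 in the tables, stood at 29.4, 25.4, 21.0 and 20.3 FPKM in embryos and at 25.8, 23.9, 14.9 and 13.5 FPKM in heads. In wild-type embryos grnd had a ratio of 0.863 after radiation, with a counting interval of 0.784 to 0.947. Both mutant head libraries lay below both wild-type head libraries, with a mutant over wild-type ratio of 0.577 in mock-treated heads and a counting interval of 0.498 to 0.667.

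None of the kinase genes passed 2-fold with radiation or between the strains. Tak1 ranged from 34.0 to 40.1 FPKM over the 4 embryo libraries and from 35.6 to 39.0 FPKM over the 4 head libraries, and its radiation differences lay between -0.03 and 0.08. The gene hep ranged from 18.4 to 23.5 FPKM in embryos and from 25.0 to 28.6 FPKM in heads. Both mutant embryo libraries, at 19.3 and 18.4 FPKM, held less hep than both wild-type libraries, at 23.5 and 23.3 FPKM. The JNK gene bsk was the most abundant of the 10 in both tissues. It stood at 158 and 176 FPKM in wild-type embryos and 185 and 184 FPKM in mutant embryos, and at 158 and 156 FPKM in wild-type heads and 191 and 187 FPKM in mutant heads. After radiation the ratio of bsk in wild-type embryos was 1.12, with a counting interval of 1.07 to 1.17 that lies above 1, and in mutant embryos it was 0.998, with an interval of 0.962 to 1.04. Mutant libraries were the higher ones in each tissue, with a mutant over wild-type ratio of 1.17 in mock-treated embryos (counting interval 1.13 to 1.22) and of 1.21 in mock-treated heads (1.14 to 1.27).

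**Figure D3:**
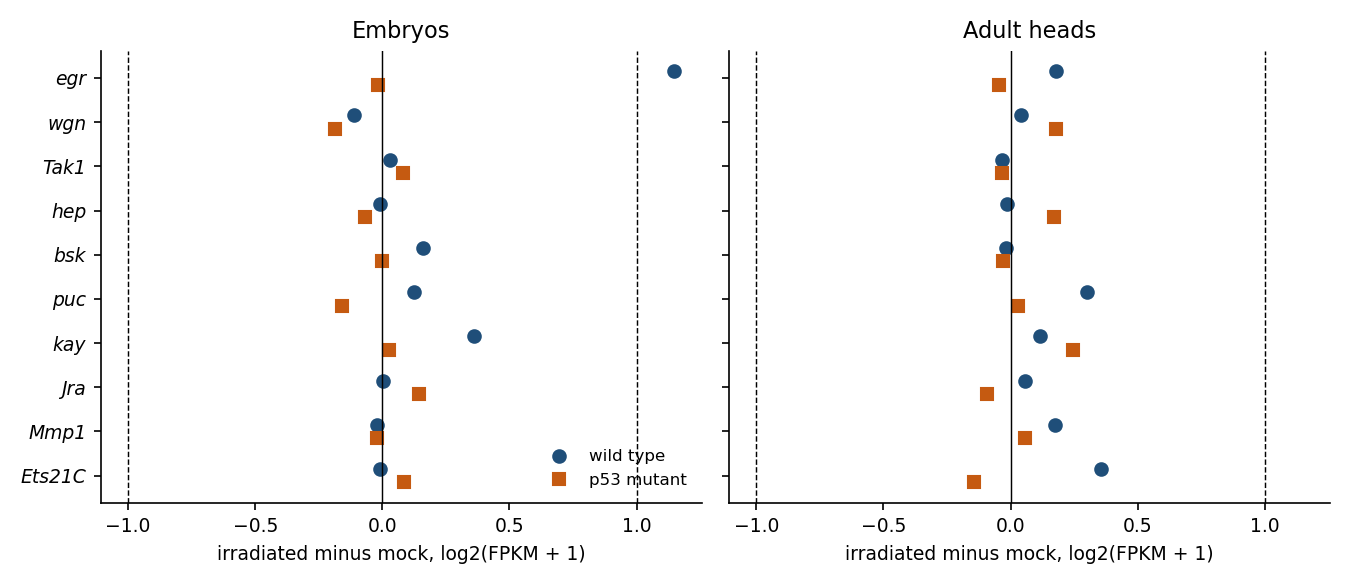
Irradiated minus mock difference in log2(FPKM + 1) of each gene, in wild type (circles) and p53 mutant (squares), for embryos (left) and heads (right), with dashed lines at 2-fold. The wild-type egr point in embryos, at 1.15, is the 1 point past a dashed line.

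Of the AP-1 genes, kay had the largest radiation difference in embryos after egr. Its levels were 20.02 FPKM in the mock-treated and 26.0 FPKM in the irradiated wild type, and 19.4 and 19.8 FPKM in the mutant. The irradiated wild type was again the highest library, by a log2 difference of 0.36, a ratio of 1.30 with a counting interval of 1.20 to 1.40. That is below 2-fold, and kay ranked 854 from the top of 10652 genes. In heads kay stood at 90.3 and 98.0 FPKM in the wild type and at 68.8 and 81.7 FPKM in the mutant, with radiation differences of 0.12 and 0.25. Its partner Jra stood at 29.9, 29.9, 26.5 and 29.4 FPKM in embryos, with a wild-type difference of 0.00. In heads Jra stood at 61.7 and 64.3 FPKM in the wild type and at 46.6 and 43.7 FPKM in the mutant. Both AP-1 genes were lower in both mutant head libraries than in both wild-type ones, under 2-fold. Genes on the opposite strand overlap 5 of the 10 genes besides egr: RpLP0-like at Jra, fig and lncRNA:CR46110 at kay, lncRNA:CR44331 at puc, Pof at Mmp1 and nAChRbeta3 at Ets21C. No source used here says whether the authors counted reads by strand, so reads of these pairs may not be told apart.

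The JNK readout puc did not pass 2-fold with radiation in either tissue. In embryos puc stood at 20.7 FPKM in the mock-treated and 22.6 FPKM in the irradiated wild type, and at 19.99 and 17.8 FPKM in the mutant. The wild-type log2 difference was 0.12, a ratio of 1.09 with a counting interval of 0.999 to 1.20, and the mutant difference was -0.16. In heads puc stood at 47.7 FPKM in the mock-treated and 59.0 FPKM in the irradiated wild type, and at 34.0 and 34.7 FPKM in the mutant. The irradiated wild type was the highest head library, by a log2 difference of 0.30 over mock, a ratio of 1.24 with a counting interval of 1.15 to 1.33, while both mutant libraries lay below both wild-type ones. In irradiated heads the mutant over wild-type ratio was 0.588, with a counting interval of 0.543 to 0.636.

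Mmp1 encodes a secreted matrix metalloproteinase and Ets21C an ETS-domain transcription factor, both known as JNK targets in fly discs and gut. In embryos Mmp1 stood at 3.80 and 3.73 FPKM in the wild type and at 5.14 and 5.05 FPKM in the mutant, a mutant minus wild-type log2 difference of 0.36 with or without radiation. In heads it stood at 32.8, 37.1, 29.1 and 30.3 FPKM. Ets21C was near the floor in embryos, at 0.770 to 0.880 FPKM from about 24 fragments in the mock-treated wild type. In heads Ets21C stood at 3.97 and 5.36 FPKM in the wild type and at 7.66 and 6.83 FPKM in the mutant. Both mutant head libraries were higher than both wild-type ones, with a ratio of 1.93 in mock-treated heads and a counting interval of 1.43 to 2.68. The wild-type radiation difference of Ets21C in heads was 0.35, the largest of the 10 genes there, with a counting interval of 0.984 to 1.90 for a ratio of 1.35.

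Counted over the group, 1 of 9 expressed genes was higher in irradiated wild-type embryos, where 1.32% of all genes were higher and 0.892% lower, 2.22% together. In irradiated mutant embryos 0 of 9 passed 2-fold, where 1.97% of all genes did in either direction. The p53-dependent count, which also required the wild-type response to pass 2-fold, was 1 of 9, where 0.873% of all genes were higher and 1.33% passed in either direction. In heads 0 of 10 passed 2-fold with radiation in the wild type, the mutant or their difference, where 2.01%, 1.37% and 1.61% of all genes did in either direction. The single gene is egr in each embryo count, so the share says nothing more about the other genes. The wild-type median of the 9 genes in embryos was 0.03 with egr and 0.02 over the 8 genes without it, against 0.02 over all genes. In heads the median of the 10 genes was 0.09 against 0.01 over all genes. Of the 10, 7 were above 0 and 3 below, and the share of all genes above 0 was not counted.

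Strain differences in the group were also under 2-fold, apart from egr in irradiated embryos. In mock-treated embryos 0 of 9 genes passed 2-fold, where 7.38% of all genes did in either direction, and in irradiated embryos 1 of 9 was lower, where 3.05% were lower and 9.48% passed in either direction. In heads 0 of 10 passed 2-fold without and with radiation, where 7.59% and 8.1% of all genes did in either direction. The members' median was -0.15 in mock-treated and -0.13 in irradiated heads, against 0.03 and -0.02 over all genes. Without radiation 7 of 10 genes were below the wild type and 3 above, and with radiation 5 were below and 4 above. The share of all genes on each side was not counted. Counted at 1.5-fold, Ets21C was higher in mock-treated mutant heads and puc lower in irradiated mutant heads, where 18% and 18.3% of all genes passed in either direction. Of 4 glial genes, 0 passed 2-fold between the strains in mock-treated heads, where repo and alrm differed by -0.69 and -0.85 and Gs2 and moody by -0.07 and 0.04. The summed level of the 4 was 807 and 787 FPKM in wild-type heads and 729 and 696 FPKM in mutant heads. The 6 haemocyte markers were split, with 3 above and 3 below the wild type in mutant heads, with and without radiation. Those below were Hml, Pxn and He. The sum of the 6 was 73.4 and 71.3 FPKM in the wild type and 104 and 97.4 FPKM in the mutant. Most of that difference lay in NimC1, at 4.25 and 3.65 FPKM against 31.7 and 31.1 FPKM. Sr-CI, at 8.27 and 5.84 FPKM against 21.1 and 21.0 FPKM, was also higher by 2-fold. Of 4 fat body genes 3 were expressed, and all 3 were below the wild type in mutant heads with and without radiation. Of these Lsp2 was lower by 2-fold in mock-treated heads, at -1.86, and differed by -0.33 in irradiated heads. The 4 fat body genes summed to 967 and 743 FPKM in wild-type heads and to 561 and 600.4 FPKM in mutant heads. The part of these cell types in the strain differences was not tested.

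**Figure D4:**
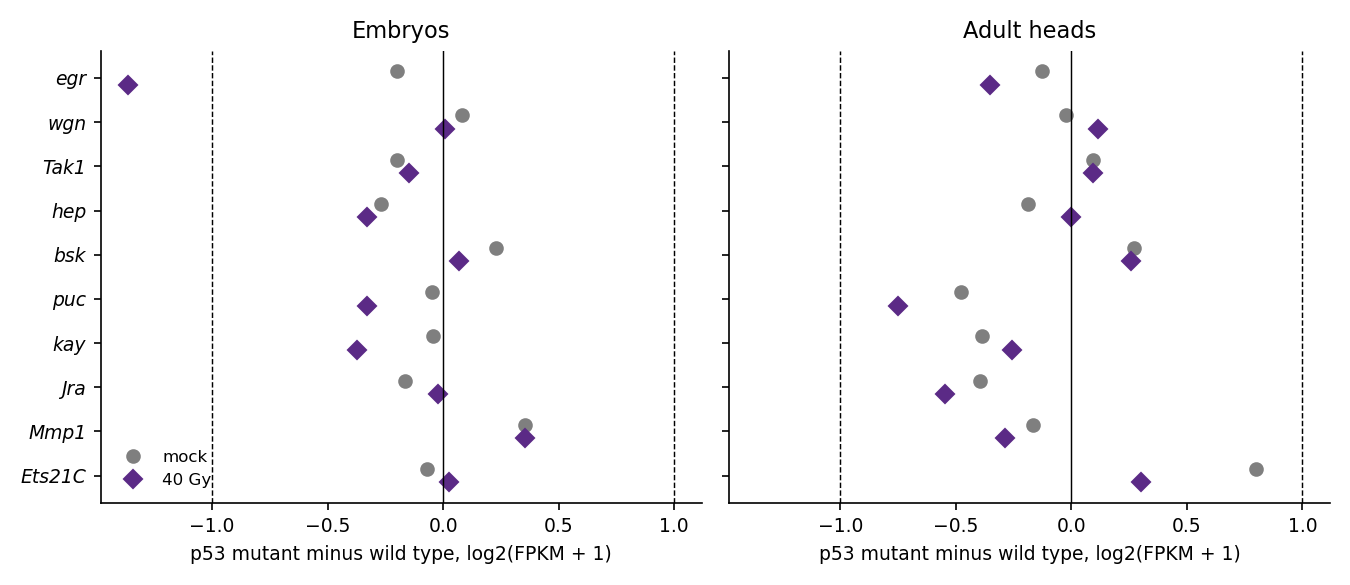
Mutant minus wild-type difference in log2(FPKM + 1) of each gene in mock (circles) and irradiated (diamonds) libraries, for embryos (left) and heads (right), with dashed lines at 2-fold. In embryos egr passes 2-fold in irradiated libraries, at -1.36, while in heads puc at -0.75 and Ets21C at 0.80 lie farthest from 0.

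Gut marker transcripts differed between the libraries in which egr was compared. All 6 listed gut genes were higher by 2-fold in irradiated wild-type embryos, where 1.32% of all genes were. In irradiated mutant embryos 4 were higher, where 1.97% of all genes passed in either direction. Between mock-treated embryos 5 of the 6 were higher in the mutant, where 7.38% of all genes passed in either direction. These gut genes were listed with earlier results of these data known. The 6 summed to 5.12 FPKM in mock-treated and 58.7 FPKM in irradiated wild-type embryos, and to 52.8 and 114 FPKM in mutant embryos. By the p53-dependent count, 4 of the 6 were higher in embryos, where 0.873% of all genes were. Their median wild-type minus mutant response was 1.40. Any part of the gut transcripts in the differences of egr was not tested. In heads the same genes summed to 138 FPKM in the irradiated wild type and to 2.52 to 6.59 FPKM in the other 3 libraries. Jon99Fi was the 1 gut gene under 1 FPKM in irradiated wild-type heads. All 5 gut genes expressed in heads were higher there by the p53-dependent count, where 1.61% of all genes passed in either direction. The 4 maternal markers bcd, osk, nos and twe summed to 22.3 and 30.6 FPKM in wild-type embryos and to 52.7 and 64.1 FPKM in mutant embryos. Their part in the strain differences among embryos was not tested.

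The 10 genes kept different orders of abundance in the tissues, whose tables were made separately, so that levels across them are set side by side only. In mock-treated wild-type embryos bsk was followed by Tak1 at 39.2, egr at 30.1, Jra at 29.9, hep at 23.5, puc at 20.7, kay at 20.02, wgn at 18.7, Mmp1 at 3.80 and Ets21C at 0.860 FPKM. Ranges over the 4 embryo libraries did not overlap between bsk and Tak1, Jra and hep, wgn and Mmp1, or Mmp1 and Ets21C, and overlapped for every other pair of neighbours. In mock-treated wild-type heads bsk was followed by kay at 90.3, Jra at 61.7, puc at 47.7, wgn at 38.2, Tak1 at 36.4, Mmp1 at 32.8, egr at 29.5, hep at 28.6 and Ets21C at 3.97 FPKM. There the ranges did not overlap between bsk and kay, kay and Jra, or hep and Ets21C. The genes kay, Jra, puc, wgn and Mmp1 thus stood higher in the order in heads than in embryos, and Tak1, egr and hep lower.

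Of 33 further pathway genes, listed with earlier results of these data known, 31 were expressed in each tissue. In irradiated wild-type embryos 2 of 31 were higher and 0 lower, beside 1.32% and 0.892% of all genes, with a list median of 0.12 against 0.02 over all genes. The 2 were rpr (reaper) and W (hid), inhibitors of the caspase inhibitor Diap1 that are targets of both JNK and p53. The transcript rpr stood at 35.0, 208, 30.0 and 24.5 FPKM in embryos, and W at 40.2, 113, 38.1 and 32.5 FPKM. As for egr, the irradiated wild type was the high library of each. Between irradiated embryos both were lower in the mutant, by log2 differences of -3.04 for rpr and -1.77 for W. In mutant embryos 0 of 31 passed 2-fold with radiation, where 1.97% of all genes did in either direction. In heads 0 of 31 did in any of the 5 comparisons, where 1.37% to 8.1% of all genes did in either direction.

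Below 2-fold, listed genes moved in both directions in irradiated wild-type embryos, with 22 of 31 above 0 and 9 below. Hsp68 fell there from 12.8 to 7.11 FPKM and scaf from 17.1 to 10.7 FPKM, log2 differences of -0.77 and -0.63. Their differences in the mutant were -0.58 and -0.39. Several other listed genes were highest in irradiated wild-type embryos. Mmp2, the other fly matrix metalloproteinase, stood at 4.36, 9.69, 4.90 and 4.90 FPKM. Its log2 difference in the wild type was 0.996, just short of 2-fold on this scale, while the plain ratio was 2.22 with a counting interval of 1.93 to 2.57, and its mutant difference was 0.00. Traf4, an adaptor of the TNF receptor associated factor family, stood at 253, 391, 233 and 231 FPKM, a wild-type ratio of 1.54 with a counting interval of 1.51 to 1.58. POSH, a scaffold protein of the pathway, stood at 14.3, 19.7, 13.0 and 12.6 FPKM, a ratio of 1.38. In heads Mmp2 stood at 37.5, 33.6, 32.9 and 34.7 FPKM and Traf4 at 9.52, 11.6, 6.85 and 6.56 FPKM. NLaz, a lipocalin induced by JNK, was the listed gene that was higher by 2-fold in irradiated mutant than in irradiated wild-type embryos. It stood at 2.41 and 1.54 FPKM in wild-type and 3.04 and 5.21 FPKM in mutant embryos. The mutant over wild-type ratio in irradiated embryos was 3.38 with a counting interval of 2.18 to 5.64, from about 24 and 93 fragments. In that comparison 6.43% of all genes were higher.

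**Figure D5:**
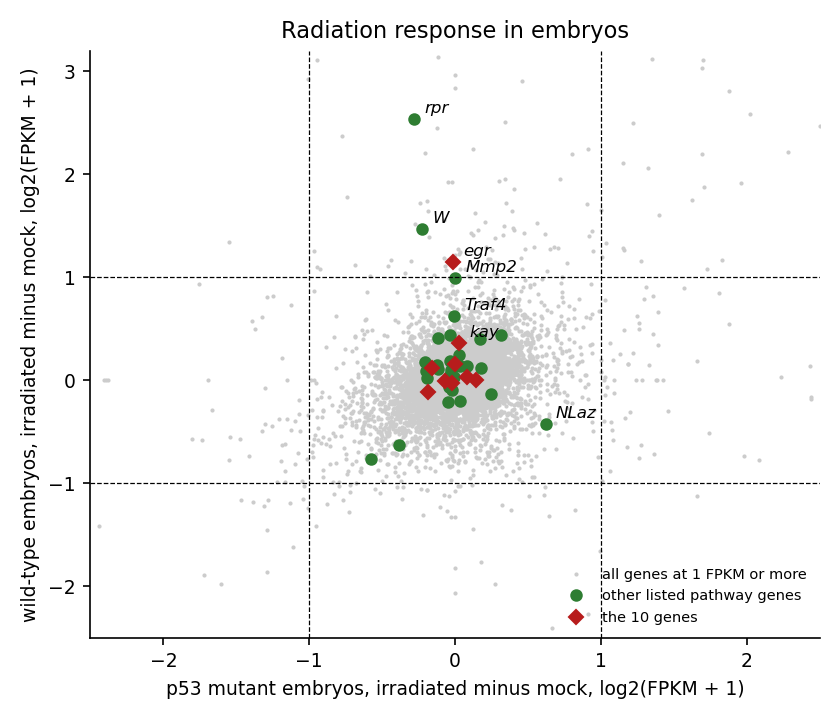
Radiation response of each gene in wild-type (vertical) against p53 mutant (horizontal) embryos, in log2(FPKM + 1), with the 10 genes as diamonds, other listed pathway genes as circles, all expressed genes in grey and dashed lines at 2-fold. The axes leave out 96 genes, and rpr, W and egr lie past 2-fold in the wild type and at -0.28, -0.23 and -0.02 in the mutant.

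Some of these 33 genes had p53 peaks within 5 kb. In embryos 4 of 33 did, wnd, aop, rpr and W, or 12.1% beside 1.91% of all genes. The peak counted for rpr lay 4647 bp outside its locus, near the edge of the 5 kb window. In heads 9 of 33 did, Traf6, wnd, aop, Atf3, Mmp2, Gadd45, NLaz, Hsp68 and W, or 27.3% beside 7.12% of all genes. The list includes known p53 targets, so its share is no independent measure of binding at the pathway. The highest authors' fold of the list in heads was at wnd, which encodes a kinase that drives JNK signalling in neurons, with 9.35 at rank 16 of 392 and a summit 176 bp before its start. Transcripts of wnd stood at 57.7, 59.1, 53.5 and 49.5 FPKM in heads and at 58.6, 63.0, 62.3 and 60.9 FPKM in embryos. The head peak at Mmp2 had a fold of 4.90 and a summit 31 bp before the start, while in embryos, where Mmp2 was higher after radiation in the wild type, the nearest peak was 394 kb away. Both tissues had a peak at the start of aop, an ETS-domain repressor, with folds of 3.52 in embryos and 3.64 in heads. Its transcript stood at 172, 175, 162 and 142 FPKM in embryos and at 19.4, 21.8, 17.4 and 17.2 FPKM in heads. The peak counted for Traf6 lay nearer to the start of GIIIspla2, 43 bp away, than to that of Traf6, 285 bp away.

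The genes whose profile over the 4 embryo libraries was most like that of egr were sought by the Euclidean distance of centred log2(FPKM + 1) values among all expressed genes. The nearest were spo, Dhc93AB, CG44153, CR44316 and CG6272, at distances of 0.11, 0.11, 0.15, 0.18 and 0.18. The cytochrome P450 gene spo (spook), of ecdysone synthesis, stood at 21.6, 53.6, 18.5 and 18.8 FPKM. CG6272, annotated as Irbp18, a leucine zipper factor, stood at 39.7, 90.9, 32.9 and 38.8 FPKM. Dhc93AB and CG44153 were below 3 FPKM in each library, and CR44316 was listed at 0 in all but the irradiated wild type, at 1.33 FPKM. In heads the widest range over the 4 libraries among the 10 genes was that of Ets21C, and the genes nearest to its profile were CG18327, Vago, CR45350, CG1969 and CG9192, at distances of 0.06 to 0.08. The most abundant of them, Vago, a secreted antiviral factor, stood at 167, 202, 279 and 259 FPKM.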

How the data were processed

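RNA and p53-bound chromatin were measured in 12 samples, 1 library per group. The submitters' processing notes name cutadapt, Picard and SAMtools for every library, TopHat2 with Cuffdiff for RNA, Bowtie2 with MACS2 for chromatin, and the dm6 build. Tool versions and the authors' gene annotation are not given in the sources used. The deposited tables hold FPKM and the authors' log2 fold changes after adding 1 FPKM, per the file headers. Recomputed log2 differences departed from the deposited ones by at most 0.0167. The deposited peak lists hold, for each peak, the authors' fold (a ratio) of wild-type over mutant chromatin and an integer score. They also give a p-value and a q-value as −log10, set by the authors' peak caller.

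Differences were computed with Python 3.11.15, pandas 2.3.3 and SciPy 1.17.1, with a pseudocount of 1 FPKM. The 2 rows of each table that shared a gene symbol were left out. Depth was estimated from the FPKM steps of genes with 1 transcript of 800 to 3000 bp, with lengths reduced by 150 bp, and a member's fragments from its shortest transcript. The simulated data on which these steps were run used the same length reduction, so they do not test that assumption. A step score of 1 would mean that every low value falls on a step. Scores were 0.299 to 0.325 in embryo libraries and 0.143 to 0.226 in head libraries. Loci are the deposited ones, which for Jra, Mmp1 and grnd run past the gene of Ensembl release 115, and a peak counted within 5 kb at any overlap. The members, lists and alternatives were chosen with earlier results of these data known. Named were p53, the 10 genes, listed pathway genes past 2-fold, grnd and the 5 nearest profiles. Mmp2, Traf4, POSH, Hsp68, scaf, the marker genes and the bound listed genes were named after their values were seen.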

Additional observations from a re-analysis of the deposited data

Results flagged for a closer look

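Differences of opposite sign between groups that came to 2-fold or more were found for 5 genes among the 10 and the 33 further pathway genes. None of them could be tested with 1 library per group, and the share of all genes that meet this rule was not computed. The opposite sign carries no weight for egr, whose mutant response was -0.02, or for rpr between the tissues, whose head difference was 0.01. The radiation response in wild-type minus mutant embryos differed by 1.17 for egr, 2.82 for rpr, 1.69 for W and -1.05 for NLaz, on the log2(FPKM + 1) scale. For NLaz the wild-type response was -0.42 and the mutant response 0.62. The wild-type radiation response of Mmp2 was 0.996 in embryos and -0.15 in heads, a difference of 1.15. The mutant minus wild-type difference in irradiated libraries was -3.04 in embryos and 0.01 in heads for rpr, a difference of -3.04, and 1.29 and -0.12 for NLaz, a difference of 1.41.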

How the results depend on the processing

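Counts of members past 2-fold were recomputed with pseudocounts of 0.1 and 0.5 FPKM, with no filter, with a filter at 5 FPKM, centred on the median difference and at 1.5-fold, and peak counts with 3 other settings. Of 66 counts, 64 were the same. Counting at 1.5-fold gave 1 member in place of 0 in mock-treated heads between the strains (Ets21C) and 1 in irradiated heads (puc), by construction of the lower threshold. The egr response in wild-type embryos ranged from 1.13 to 1.17 and its p53-dependent response from 1.17 to 1.20. Of 160 counting intervals under other length reductions, 158 stayed on the same side of 1, the exceptions being puc in wild-type embryos and wgn between irradiated heads. Depth estimates then ran from 17.0 to 25.4 M fragments in embryos and 8.88 to 15.4 M in heads. No paired analysis was possible because each group holds a single library, and for the same reason no replicate could be left out. Depth limits Ets21C in embryos, where about 24 and 25 fragments leave a wild-type ratio of 0.988 with a counting interval of 0.524 to 1.75.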
